A study of Mus musculus with 8 samples.

Results

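Small nucleolar RNAs (snoRNAs) of the C/D box and H/ACA box classes were examined in bulk RNA sequencing of mouse cerebellum. The members were chosen by 3 criteria: GENCODE class snoRNA, a symbol beginning with Snord (C/D box) or Snora (H/ACA box), and counts summing to at least 40 over the 8 libraries. The deposited table held 56691 genes, of which 155 were Snord or Snora genes, and 46 of these met the count minimum. The 46 members comprised 31 C/D genes and 15 H/ACA genes. As the rule used the summed count, the levels of the members are given as a description.

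The libraries came from cerebella of 4 *Atm*-WT (genotype ATM +/+; mice 2M, 7M, 13M and 32M) and 4 *Atm*-KO mice (ATM -/-; mice 1M, 7F, 11M and 12M), 1 library per mouse. By the study's text the mice were 6 months old, and no treatment is named for them. The strain was B6;129S4-Atmtm1Bal/J, in which the targeted allele is in the germline and thus in every cell type. *Atm*-KO mice were bred from heterozygotes, and *Atm*-WT littermates served as controls. The names of 7 mice end in M and that of 1 *Atm*-KO mouse ends in F.

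snoRNAs are short non-coding RNAs of the nucleolus, the site of ribosome production. A C/D box snoRNA assembles with the methyltransferase Fbl and its partners Nop56, Nop58 and Snu13, and guides methylation of the ribose at chosen positions of ribosomal and spliceosomal RNAs by base pairing. An H/ACA box snoRNA assembles with the pseudouridine synthase Dkc1 and its partners Gar1, Nhp2 and Nop10, and guides the conversion of uridine to pseudouridine. In mammals most snoRNAs are cut from an intron of a host gene after splicing, and many hosts encode ribosomal proteins or other parts of the translation machinery. A few, such as the Snord3 family, Snord118 and Snora73, take part in the cleavage of the ribosomal RNA precursor rather than in guiding a modification.

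The sequences of 8 members are shown because they are the most abundant of each class or those with the smallest p-values, and because the boxes are what separates the classes. They were read from the GRCm39 genome at the GENCODE coordinates and are printed 5′ to 3′ as DNA. In the C/D box genes the capitals mark the C box (ATGATGA or GTGATGA with at most 1 mismatch, in the first 20 bases) and the D box (CTGA, in the last 15 bases). Snord17 lies at chr2:144107899-144108136 (minus strand) in an intron of Snx5, Snord7 at chr11:83185130-83185226 (plus strand) in an intron of the long non-coding RNA gene AA465934, Snord71 at chr8:110565927-110566011 (plus strand) in an intron of Ap1g1, and Snord98 at chr10:62601355-62601419 (minus strand) in an intron of Ccar1.
Snord17: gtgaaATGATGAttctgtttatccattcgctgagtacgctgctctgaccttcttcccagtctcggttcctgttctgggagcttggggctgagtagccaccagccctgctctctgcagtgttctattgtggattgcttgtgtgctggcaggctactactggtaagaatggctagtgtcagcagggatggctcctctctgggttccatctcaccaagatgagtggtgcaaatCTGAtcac
Snord7: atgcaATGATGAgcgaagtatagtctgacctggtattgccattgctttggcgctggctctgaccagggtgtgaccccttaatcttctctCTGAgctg
Snord71: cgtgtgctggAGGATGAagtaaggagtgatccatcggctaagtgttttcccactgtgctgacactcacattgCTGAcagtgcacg
Snord98: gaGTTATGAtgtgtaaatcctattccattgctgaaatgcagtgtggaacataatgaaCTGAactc

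In the H/ACA box genes the capitals mark the H box (ANANNA, between 35% and 65% of the length) and the ACA trinucleotide that comes just before the last 2 to 4 bases. Snora73b lies at chr4:132079633-132079837 (minus strand) within the span of Rcc1 and overlaps an exon of an annotated Rcc1 transcript. Snora30 lies at chr7:127127046-127127175 (plus strand) in an intron of Srcap, Snora31 at chr14:76085345-76085474 (plus strand) in an intron of Tpt1, and Snora47 at chr13:95467108-95467245 (plus strand) in an intron of Zbed3.
Snora73b: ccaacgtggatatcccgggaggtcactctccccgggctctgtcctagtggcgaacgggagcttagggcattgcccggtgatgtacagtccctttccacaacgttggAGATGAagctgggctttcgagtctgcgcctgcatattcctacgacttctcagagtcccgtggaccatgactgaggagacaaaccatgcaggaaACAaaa
Snora30: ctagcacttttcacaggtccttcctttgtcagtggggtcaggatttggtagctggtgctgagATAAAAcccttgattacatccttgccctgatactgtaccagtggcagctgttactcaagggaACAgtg
Snora31: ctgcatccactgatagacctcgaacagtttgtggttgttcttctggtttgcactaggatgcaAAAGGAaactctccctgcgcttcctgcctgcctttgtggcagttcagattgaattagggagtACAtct
Snora47: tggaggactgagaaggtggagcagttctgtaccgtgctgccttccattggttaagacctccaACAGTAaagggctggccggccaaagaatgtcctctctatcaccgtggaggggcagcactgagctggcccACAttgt

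The boxes followed the names of the classes. Both a C box and a D box were found in 24 of the 31 C/D members (77.4%), in 90 of all 113 C/D genes (79.6%), and in 0 of the 113 windows of the same length just upstream of those genes. Both an H box and an ACA trinucleotide were found in 15 of 15 H/ACA members (100%), in 37 of all 42 H/ACA genes (88.1%), and in 0 of the 42 upstream windows. No H/ACA gene held a C and D box pair, whereas 1 of the 31 C/D members, Snord73b, also held an H and ACA pair. Snord3b-ps2, a copy of the U3 snoRNA annotated as a pseudogene, and Snord53 were among the C/D members in which one of the boxes was not found by these letters. The motifs were searched on the strand of the gene, and a match is a description of the letters in that window.

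The classes also differed in size. The C/D members were 64 to 238 bases long (median 85), and the H/ACA members were 128 to 205 bases long (median 137). The median GC content was 46.2% in the C/D members and 46.7% in the H/ACA members. By their own strand, 20 C/D members and 8 H/ACA members lay in introns alone, and the other 18 members touched an exon. Among the members in introns alone, the distance to the next exon downstream had a median of 345 bases in the C/D class, with 8 of 20 under 150 bases. The same distance had a median of 241.5 bases in the H/ACA class, with 2 of 8 under 150 bases.

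The libraries held 65967130 to 88030300 counts in all, of which the 46 members took 692 to 849 counts per *Atm*-WT library and 748 to 1453 counts per *Atm*-KO library. Levels are given as CPM, the usual depth-scaled count, after TMM scaling of the library totals, and a single count corresponded to 0.0114 to 0.0152 CPM before that scaling. The targeted gene *Atm* (chr9:53348097-53448236) stood at 67.6, 80.0, 79.3 and 59.0 CPM in mice 2M, 7M, 13M and 32M of the WT group and at 51.1, 44.2, 41.1 and 44.9 CPM in mice 1M, 7F, 11M and 12M of the KO group. Every *Atm*-KO library was below every *Atm*-WT library, with a log2 fold change of -0.66 (SE 0.10, n = 4 per genotype, edgeR adjusted p = 0.0775). All 5 markers listed for each of granule cells, Purkinje cells, oligodendrocytes, astrocytes, microglia and endothelial cells were present in this tissue. In each of these lists, and in the lists for choroid plexus and red blood cells, 0 of 5 markers passed an adjusted p of 0.05 by edgeR, and the summed levels of the genotypes overlapped. At an unadjusted p of 0.05, 2 or 3 of 5 markers passed in each list except those of granule cells and red blood cells, where 0 did (of all genes tested, 11.7% were higher and 8.48% lower at that p). All 5 markers had values below 0 for oligodendrocytes (summed 2852 to 3729 CPM in WT and 1798 to 3001 in KO), astrocytes (2050 to 2240 and 1844 to 2061), microglia (72.5 to 101 and 59.2 to 77.0) and choroid plexus (764 to 1526 and 414 to 1190). The part of cell composition in the results was not tested, and in bulk tissue fewer cells of a type and less RNA per cell cannot be told apart.

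Most Snord and Snora genes had no counts. 85 of the 155 genes stood at 0 in every library, comprising 63 of 113 C/D genes and 22 of 42 H/ACA genes. These zeros differed by position. Of the 94 genes that touched an exon of another gene of the table on either strand, 67 were at 0 and 17 were members. Of the 61 genes that touched no such exon, 18 were at 0 and 29 were members. In the H/ACA class 22 of 31 genes touching an exon were at 0, against 0 of 11 touching none. In the C/D class 45 of 63 were at 0, against 18 of 50. How the counting assigned reads over overlapping genes is not given in the sources used here, and its part in these zeros was not tested.

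**Figure D1:**
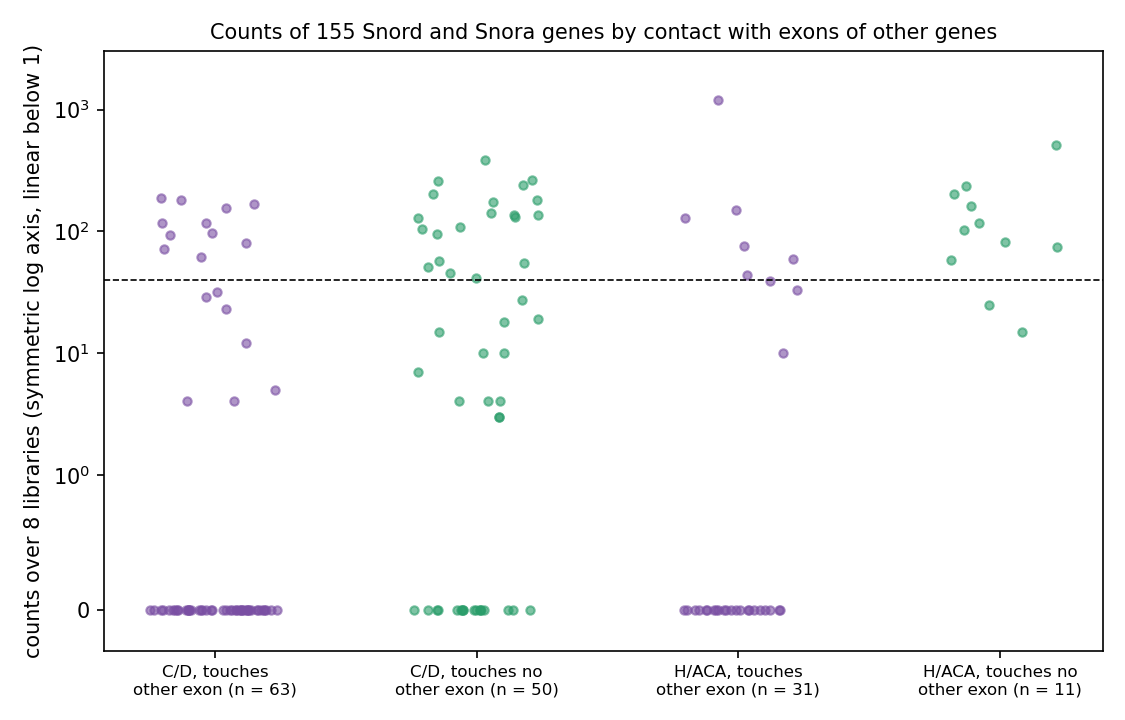
Counts of the 155 Snord and Snora genes summed over the 8 libraries (vertical, symmetric log axis that is linear below 1), split by class and by contact with an exon of another gene of the table (horizontal). Each point is a gene, its sideways position within a column is random, and the dashed line marks the minimum of 40 counts. All 11 H/ACA genes touching no exon are above 0, whereas 22 of the 31 touching one are at 0.

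Several known snoRNA host genes contributed no member. All 4 snoRNA genes of Gas5, all 5 of Snhg12, all 3 of Hspa8, all 3 of Snhg7 and all 3 of Snhg16 were at 0 in every library, although the host genes themselves were measured at a mean of 12.98 CPM (Gas5), 3.37 CPM (Snhg12), 1144 CPM (Hspa8), 5.31 CPM (Snhg7) and 3.34 CPM (Snhg16). Snhg14 is the long imprinted transcript that carries the Snord116 cluster of the Prader-Willi syndrome region. Of its 17 Snord genes in the table, 10 were at 0 and only Snord116l12, with 129 counts, reached the minimum. A count of 0 here says that no read was assigned to the gene, not that the snoRNA was absent. At the minimum itself, Snord13 (22 counts in *Atm*-WT, 19 in *Atm*-KO) and Snora73a (20 and 24) were just inside, and Snora2b (9 and 30) and Snora5c (9 and 24) just outside.

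Levels within the members were compared per kilobase of gene length. The C/D members had a median of 2.50 CPM per kb (0.641 to 4.97), and the H/ACA members a median of 1.26 CPM per kb (0.337 to 9.31). Before division by gene length the medians were close, at 0.209 CPM in the C/D members and 0.186 CPM in the H/ACA members. The gap per kilobase thus came with the division by length. Snora73b had the highest value, at 9.31 CPM per kb, and its neighbour Snora73a the lowest, at 0.337 CPM per kb, although the sequences of the pair were 96.6% identical. Reads that fit both genes could have been dropped or split, so the levels of this pair are uncertain. 5 C/D and 7 H/ACA members had another annotated gene of at least 90% identity, and Snora19 had an exact copy in the genome. Across the 46 members the Spearman correlation of level with length was 0.036, which is given as a description over genes that share the same 8 libraries.

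Most members had a higher level in cerebella of the KO group, and no single gene passed correction over all genes. edgeR's filter on low counts kept 33 members (24 C/D and 9 H/ACA). 0 of the 33 passed an adjusted p of 0.05 in edgeR's quasi-likelihood test, where 0.0178% of all 22423 genes tested did. The lowest adjusted p among them was 0.154, for Snord7. At an unadjusted p under 0.05, 8 of the 33 were higher in *Atm*-KO, all of them C/D genes, where 11.7% of all genes tested were. On the lower side the count was 0 of 33, where 8.48% of all genes were. In 4 of the 33, all C/D genes, every *Atm*-KO library lay above every *Atm*-WT library, against 6.45% of all genes tested. DESeq2 gave 9 of 46 members at an unadjusted p under 0.05, all higher in *Atm*-KO (8 C/D genes and 1 H/ACA gene), where 8.27% of all genes were. It gave an adjusted p to 22 members, of which 0 passed 0.05, where 7.49% of all genes given one did, and Snord7 was again lowest at 0.0995.

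Because the filter keeps low genes through the group in which they are high, the direction was counted over all 46 members in a fit of the 24875 genes with at least 40 summed counts. Of the 33 that had passed the filter, 10 did so with all 4 *Atm*-WT libraries above its minimum and 11 with all 4 *Atm*-KO but fewer than 4 *Atm*-WT libraries. The other 12 passed with fewer than 4 libraries above the minimum in each genotype. In the wider fit 44 of 46 members had a log2 fold change above 0 (30 of 31 C/D and 14 of 15 H/ACA), where 48.0% of all genes did. The median log2 fold change was 0.80 in the C/D members and 0.38 in the H/ACA members, against -0.013 over all genes of that fit. Among the 7 C/D and 2 H/ACA members with at least 10 counts in every library, the medians were 0.39 and 0.27. 9 of the 46 members had an unadjusted p under 0.05 on the higher side, where 11.1% of all genes did, and 4 had groups that did not overlap, where 6.23% of all genes did. The smallest adjusted p was 0.163. The 2 members with a fold change below 0 were Snord13 (-0.13, SE 0.64) and Snora73b (-0.17, SE 0.25), each within its error of 0.

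**Figure D2:**
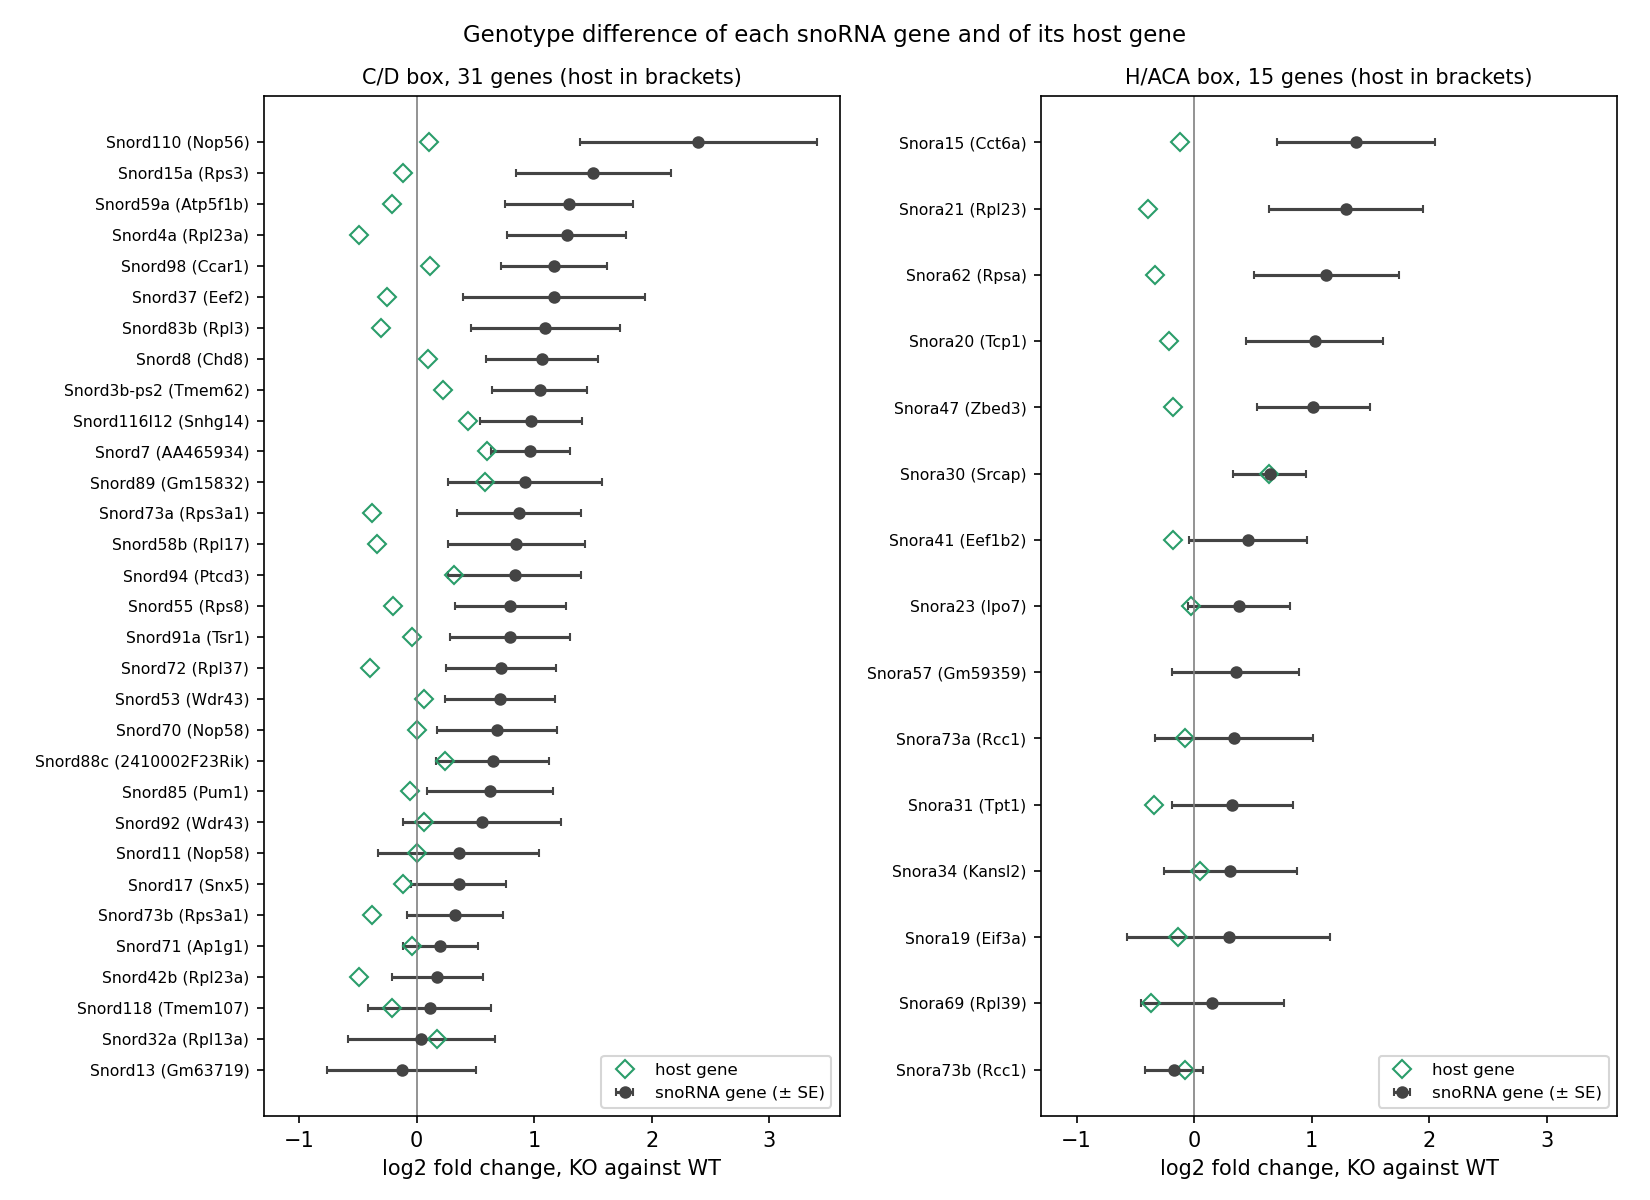
Log2 fold change of *Atm*-KO against *Atm*-WT (horizontal) for the 31 C/D genes (left) and 15 H/ACA genes (right), each row a gene with its host in brackets. Filled points with bars are the snoRNA genes with their standard errors from the fit of genes with at least 40 summed counts, and open diamonds are the host genes from the fit with edgeR's own filter (2 hosts are not in the table). 44 of the 46 points lie above 0, and most open diamonds lie at or below 0.

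Snord7, a guide of the C/D class hosted by AA465934, had the smallest p. Its counts were 30, 19, 18 and 25 in the *Atm*-WT mice 2M, 7M, 13M and 32M and 66, 35, 37 and 35 in the *Atm*-KO mice 1M, 7F, 11M and 12M. The lowest *Atm*-KO library was above the highest *Atm*-WT library, and mouse 1M stood well above the other KO mice. The means of the WT and KO groups were 0.288 ± 0.079 and 0.563 ± 0.165 CPM (SD, n = 4), with a log2 fold change of 0.97 (SE 0.33, edgeR adjusted p = 0.154). The host AA465934, a long non-coding RNA gene, had a log2 fold change of 0.60 (SE 0.19, edgeR adjusted p = 0.134).

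The other 3 members whose groups did not overlap were Snord98, Snord116l12 and Snord4a. Snord116l12 is outside the rule for named genes and was picked after its values were seen, as the count of such members was small. Snord98 had 5, 22, 18 and 10 counts in *Atm*-WT and 35, 25, 29 and 29 counts in *Atm*-KO, in the same order of mice, and its log2 fold change was 1.17 (SE 0.44, edgeR adjusted p = 0.177). The *Atm*-KO values of Snord98 were close together, at 0.388 ± 0.051 CPM, and the wider spread was that of the WT group, at 0.172 ± 0.102 CPM (SD, n = 4).

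Snord116l12, a brain-enriched C/D snoRNA without a known rRNA target, had 14, 8, 17 and 6 counts in *Atm*-WT and 19, 21, 24 and 20 counts in *Atm*-KO. Its log2 fold change was 0.98 (SE 0.42, edgeR adjusted p = 0.222), beside 0.43 (SE 0.12, edgeR adjusted p = 0.107) for its host Snhg14. It has a near copy of 96.8% identity, so reads could also belong to another gene of the cluster. Snord4a, in the ribosomal protein gene Rpl23a, had 9, 5, 12 and 9 counts in *Atm*-WT and 35, 11, 26 and 10 counts in *Atm*-KO. On the CPM scale its groups were apart by a small margin, since mice 7F and 12M were close to the *Atm*-WT mice, and its log2 fold change was 1.28 (SE 0.49, edgeR adjusted p = 0.181). Snord4a touches an exon of Rpl23a and, on the opposite strand, one of Tlcd1, so without strand in the counting its reads could not be told apart from theirs. Snord42b, the other member in Rpl23a, had 19, 24, 14 and 23 counts against 27, 22, 13 and 24, and a log2 fold change of 0.18 (SE 0.38), which ran from 0.034 (without *Atm*-WT 13M) to 0.38 (without *Atm*-KO 11M).

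The remaining 4 C/D members below an unadjusted p of 0.05 had overlapping groups. Snord3b-ps2 had 17, 15, 24 and 12 counts in *Atm*-WT and 44, 35, 16 and 38 in *Atm*-KO, with a log2 fold change of 1.05 (SE 0.40, edgeR adjusted p = 0.179). Mouse 11M alone of the *Atm*-KO group lay within the *Atm*-WT range for this gene. Snord59a, in the ATP synthase gene Atp5f1b, had 6, 19, 11 and 4 counts in *Atm*-WT and 33, 23, 12 and 27 in *Atm*-KO, with a log2 fold change of 1.30 (SE 0.54, edgeR adjusted p = 0.207). Snord15a, in the ribosomal protein gene Rps3, had the largest fold change of the tested members, at 1.51 (SE 0.64, edgeR adjusted p = 0.218), from 11, 11, 2 and 5 counts against 32, 7, 13 and 28. Here mouse 7F lay within the *Atm*-WT range. Snord8, in the chromatin remodeller gene Chd8, had a log2 fold change of 1.07 (SE 0.47, edgeR adjusted p = 0.235).

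Of the 6 most abundant C/D members, Snord7 and Snord3b-ps2 are described above, and the other 4 had p-values above 0.05. Snord17, the C/D member with the most counts, had 46, 35, 35 and 57 counts in *Atm*-WT and 94, 19, 47 and 51 in *Atm*-KO. The *Atm*-KO group held both the highest (1M) and the lowest (7F) of the 8 libraries, and the log2 fold change was 0.36 (SE 0.41, edgeR adjusted p = 0.654). Its log2 fold change was -0.010 without mouse 1M and 0.66 without mouse 7F. Snord71 had 37, 28, 31 and 29 counts against 37, 22, 38 and 39, with a log2 fold change of 0.20 (SE 0.32, edgeR adjusted p = 0.754), which was 0.39 without mouse 7F and 0.067 without mouse 12M. Snord53, which shares the host Wdr43 with Snord92, had a log2 fold change of 0.71 (SE 0.47), and Snord72, in Rpl37, had 0.72 (SE 0.46), with edgeR adjusted p-values of 0.413 and 0.406. Snord53 was at 0.39 without *Atm*-WT mouse 32M.

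Snord118 and Snord13 are known to have promoters of their own. Snord118 (U8), which acts in the cleavage of the rRNA precursor, had 15, 15, 5 and 16 counts in *Atm*-WT and 9, 20, 16 and 8 in *Atm*-KO, and its log2 fold change of 0.11 (SE 0.49, edgeR adjusted p = 0.922) was far within its error. Snord13 (U13), known for guiding the acetylation of a cytidine in the small subunit rRNA, had 4, 9, 5 and 4 counts against 2, 4, 7 and 6, and was at -0.13 in the wider fit. The value of Snord118 turned to -0.15 without *Atm*-WT mouse 13M and to -0.12 without *Atm*-KO mouse 7F.

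Snord110, which touches an exon of the C/D core protein gene Nop56, had the largest fold change in the wider fit but too few counts for the filtered one. It was picked after its values were seen. It had 1, 4, 5 and 0 counts in *Atm*-WT and 17, 0, 21 and 14 in *Atm*-KO, with a log2 fold change of 2.40 (SE 1.01). 3 of the *Atm*-KO mice were above all *Atm*-WT mice, and mouse 7F had no count.

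**Figure D3:**
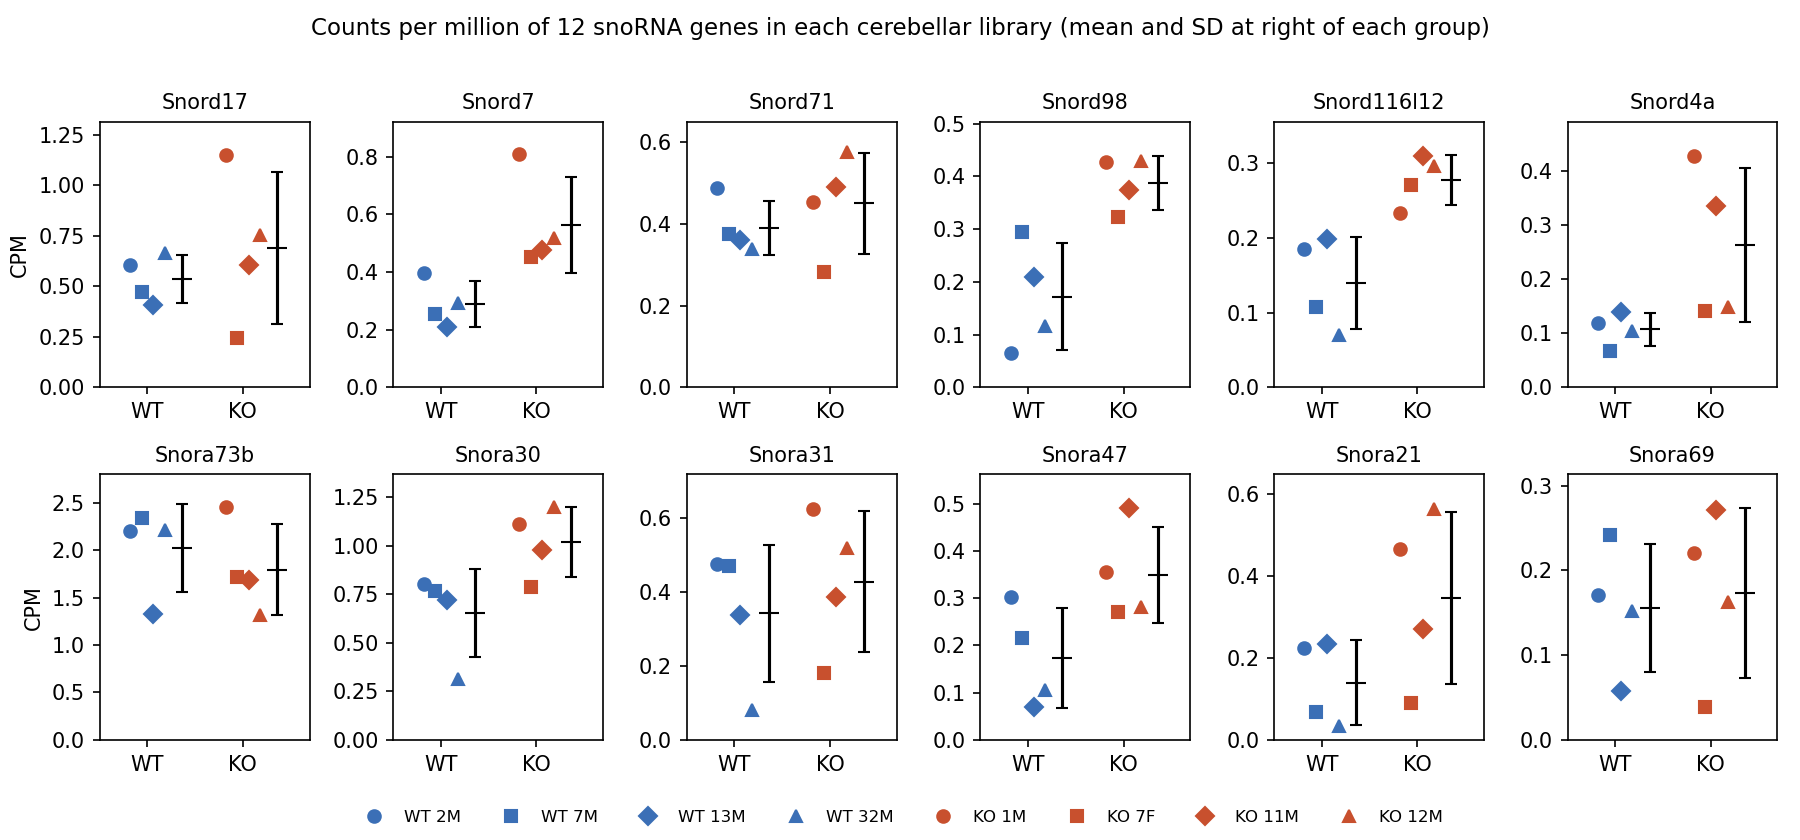
CPM (vertical, each panel on its own scale from 0) of 6 C/D genes (upper row) and 6 H/ACA genes (lower row) in the 4 *Atm*-WT and 4 *Atm*-KO libraries. Symbols mark the mice, and the bar to the right of each group gives the mean and SD (n = 4). Snord7, Snord98, Snord116l12 and Snord4a have groups that do not overlap, and *Atm*-KO mouse 7F is the lowest *Atm*-KO point in 10 of the 12 panels.

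In the H/ACA class 0 of 9 members tested by edgeR passed an unadjusted p of 0.05 in either direction. DESeq2 gave 1 of 15, Snora30, on the higher side (8.27% of all genes). Snora47, in Zbed3, came nearest, with 23, 16, 6 and 9 counts in *Atm*-WT and 29, 21, 38 and 19 in *Atm*-KO and a log2 fold change of 1.02 (SE 0.47, edgeR adjusted p = 0.254). Its groups overlapped through *Atm*-WT mouse 2M. Snora30, in the chromatin remodeller gene Srcap, had 61, 57, 62 and 27 counts against 91, 61, 76 and 81, with a log2 fold change of 0.65 (SE 0.31, edgeR adjusted p = 0.268). The host Srcap had 0.64 (SE 0.15, edgeR adjusted p = 0.0938). Without *Atm*-WT mouse 32M, whose count was the lowest, Snora30 was at 0.41. Snora21, in Rpl23, had 17, 5, 20 and 3 counts against 38, 7, 21 and 38, with a log2 fold change of 1.30 (SE 0.65, edgeR adjusted p = 0.288). In *Atm*-WT 2M and 13M were well above 7M and 32M, and in *Atm*-KO 7F was the lowest.

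Snora73b (U17), an H/ACA RNA of rRNA precursor cleavage, held 1199 of the counts, which was 37.4% of all H/ACA member counts. It had 167, 174, 114 and 190 counts in *Atm*-WT and 201, 133, 131 and 89 in *Atm*-KO. The means were 2.02 ± 0.466 and 1.79 ± 0.479 CPM (SD, n = 4), the groups overlapped, and the log2 fold change was -0.17 (SE 0.25, edgeR adjusted p = 0.742). It ran from -0.36 (without *Atm*-KO 1M) to -0.046 (without *Atm*-KO 12M). Its near copy Snora73a had 2, 3, 3 and 12 counts against 10, 5, 5 and 4. Both touch exons on the opposite strand as well, so without strand in the counting their reads could not be told apart from those of the antisense gene.

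The other named H/ACA members had fold changes within about their standard error. Snora31, in the translation-linked gene Tpt1, had 36, 35, 29 and 7 counts in *Atm*-WT and 51, 14, 30 and 35 in *Atm*-KO, with a log2 fold change of 0.33 (SE 0.52). Without *Atm*-WT mouse 32M its value was -0.00052. Snora23, in the importin gene Ipo7, had 0.39 (SE 0.43), Snora41, in the elongation factor gene Eef1b2, 0.47 (SE 0.49), and Snora69, in Rpl39, 0.16 (SE 0.58). Their edgeR adjusted p-values were 0.649, 0.624 and 0.903, with 0.758 for Snora31. Snora69 turned to -0.097 without *Atm*-WT mouse 13M and to -0.12 without *Atm*-KO mouse 11M. Snora41 ran from 0.17 (without *Atm*-KO 1M) to 0.79 (without *Atm*-WT 13M), and Snora23 was at 0.70 without *Atm*-KO 11M.

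Summed over each class, the levels of the genotypes overlapped through 1 *Atm*-KO mouse. The 31 C/D members summed to 5.28, 5.91, 5.15 and 4.16 CPM in *Atm*-WT and to 10.8, 5.36, 7.93 and 10.4 CPM in *Atm*-KO. The means were 5.12 ± 0.722 and 8.63 ± 2.52 CPM (SD, n = 4), a ratio of 1.68. The *Atm*-KO mice 1M and 12M were highest, 11M lay above the *Atm*-WT range and 7F lay inside it. The 15 H/ACA members summed to 4.999, 5.49, 3.89 and 3.91 CPM against 6.96, 4.28, 5.56 and 6.16 CPM, with means of 4.57 ± 0.803 and 5.74 ± 1.13 CPM and a ratio of 1.26. Without Snora73b the H/ACA sums were 2.55 and 3.94 CPM and the ratio 1.55. The difference between the classes in these ratios was not tested. Leaving out 1 mouse at a time, the C/D ratio ran from 1.54 (without *Atm*-KO 1M) to 1.90 (without *Atm*-KO 7F), and the H/ACA ratio from 1.17 (without *Atm*-KO 1M) to 1.36 (without *Atm*-KO 7F).

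The count of members higher at an unadjusted p under 0.05 turned on single mice, and the share of all genes moved as well. With all 8 mice it was 8 of 33, where 11.7% of all genes were. Without *Atm*-KO 7F it was 14 of 37 members (13.8% of all genes), and without *Atm*-KO 11M it was 5 of 36 (12% of all genes). Without *Atm*-KO 12M it was 3 of 33 (8.22% of all genes), without *Atm*-KO 1M 2 of 33 (7.9% of all genes), and without *Atm*-WT 32M 2 of 36 (8.65% of all genes). With at least 10 counts in every library it was 4 of 9, where 13.8% of all genes were. The direction turned less: by the ratio of mean CPM, 42 to 44 of the 46 members were higher in *Atm*-KO with any 1 mouse left out. The members share the same 8 mice and moved together by mouse, so this count does not stand for independent results. The counts are small, and the 9 members with 200 or more counts had a median log2 fold change of 0.38 against 0.79 for the 17 with fewer than 100. Of those 9, 8 were higher, and of the 17, 16 were.

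Other gene groups had the same mice at their extremes as the members. The 1352 other genes of class snoRNA, mostly unnamed gene models, summed to 23.4 to 52.0 CPM in *Atm*-WT and 56.4 to 83.9 CPM in *Atm*-KO, and the groups did not overlap. In the wider fit 189 of the 204 measured among them were above 0, with a median log2 fold change of 0.98. TEC genes, gene models awaiting experimental support and often inside introns, summed to 2005 to 3415 CPM in *Atm*-WT and 3576 to 5168 CPM in *Atm*-KO. Of these, 1717 of 1932 were above 0 in the wider fit, with a median of 0.67. The 12 RNAs listed as kept in the nucleus, such as Malat1 and Neat1, summed to 5414 to 10333 CPM and 10866 to 16564 CPM. In each of these groups *Atm*-KO 1M and 12M were the highest libraries and *Atm*-WT 32M the lowest, as for the C/D sum. The 37 genes of the mitochondrial genome went the other way, at 9321 to 12167 CPM in *Atm*-WT and 5517 to 9617 CPM in *Atm*-KO. The part of RNA quality or of the share of unspliced RNA in the members' values was not tested.

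**Figure D4:**
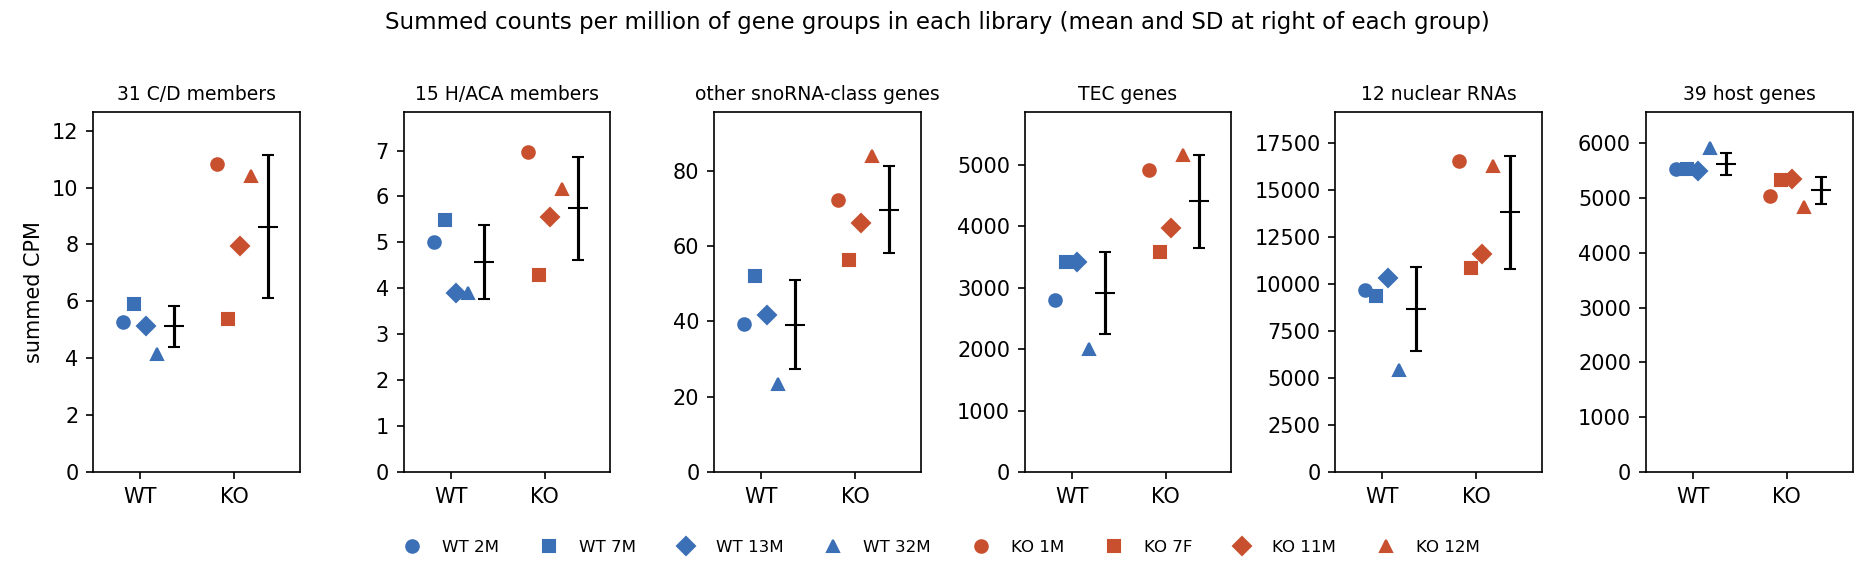
Summed CPM (vertical, each panel on its own scale from 0) of the C/D members, the H/ACA members, the other genes of class snoRNA, TEC genes, 12 RNAs listed as kept in the nucleus and the 39 host genes found in the table, in each library. Symbols mark the mice and the bars give mean and SD (n = 4). The member sums overlap between genotypes through *Atm*-KO mouse 7F, whereas the other 4 groups do not overlap.

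Among other short RNA classes of the wider fit, the median log2 fold change was 0.80 for 322 miRNA genes, 0.65 for 153 snRNA genes, 0.58 for 65 misc_RNA genes and 0.25 for 16 scaRNA genes. Summed, the misc_RNA genes went the other way from their median, at 1163 to 2602 CPM in *Atm*-WT and 767 to 1129 CPM in *Atm*-KO, without overlap. The scaRNAs carry the same boxes as snoRNAs but reside in Cajal bodies. Their median was -0.15 over the 11 that passed edgeR's filter, so their direction depended on the filter. Protein-coding genes had a median of -0.063 over 15887 genes and lncRNA genes 0.13 over 4079 genes. The members' medians of 0.80 and 0.38 lay within the range of the other short RNA classes, and nothing was tested to set them apart.

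The host genes were compared with the members inside them. The 46 members lay in 41 hosts, of which 39 were in the table and tested. 14 of the 39 hosts had a log2 fold change above 0 (35.9%), with a median of -0.12, where 36.2% of protein-coding genes and 46.9% of all genes tested were, and 36 of the 39 hosts are protein-coding. Summed, the hosts stood at 5489 to 5917 CPM in *Atm*-WT and 4831 to 5356 CPM in *Atm*-KO, without overlap. The 11 ribosomal protein hosts had a median of -0.34, with 10 of 11 below 0 and 7 below 0 at an unadjusted p under 0.05, where 8.48% of all genes tested were. An example is Rps3a1, the host of Snord73a and Snord73b, at -0.38 (SE 0.08, edgeR adjusted p = 0.0931). The 3 lncRNA hosts AA465934, Snhg14 and Gm15832 were all above 0, with a median of 0.58. 0 of the 39 hosts passed an adjusted p of 0.05 by edgeR, where 6 were higher and 11 lower at an unadjusted p under 0.05 (11.7% and 8.48% of all genes tested). DESeq2 called 10 of 39 at an adjusted p of 0.05, where it called 7.49% of all genes given one.

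Gene by gene, 42 of the 44 members with a measured host had a fold change above that of the host, and 27 combined a member above 0 with a host below 0. Across these 44 pairs the Spearman correlation was 0.0069 for the fold changes and 0.050 for the levels, as a description over pairs of which some share a host. In 42 of the 44 pairs the host level was more than 10-fold that of the snoRNA gene. Of the members in introns alone by their own strand, 28 of 28 were above 0 in the wider fit, with a median of 0.70. Of those touching an exon on their own strand 16 of 18 were, with a median of 0.76. The 28 include Snord91a, which touches an exon on the opposite strand.

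The proteins that build the snoRNA particles showed small differences. Of the C/D core proteins, Snu13 had means of 61.0 ± 5.11 CPM in WT and 52.4 ± 2.70 CPM in KO (log2 fold change -0.22, SE 0.07, edgeR adjusted p = 0.148), whereas Fbl (-0.033), Nop56 (0.11) and Nop58 (0.0023) were within about 2 standard errors of 0. Of the H/ACA core proteins, all 4 had values below 0, with a median of -0.20, and Dkc1 had 37.2 ± 1.14 and 32.8 ± 1.47 CPM (-0.18, SE 0.06, edgeR adjusted p = 0.157). For Snu13 and for Dkc1 every *Atm*-KO library lay below every *Atm*-WT library, as for 5.16% of all genes tested. 0 of the 8 core proteins passed an adjusted p of 0.05, and 2 passed an unadjusted p of 0.05, both on the lower side, where 8.48% of all genes tested were.

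Of 23 assembly and processing factors tested, 10 were above 0 and 0 passed an adjusted p of 0.05 by edgeR. Nopchap1, which links the box C/D particle to its assembly machinery, was the 1 factor at an unadjusted p under 0.05, on the higher side (11.7% of all genes tested), with a log2 fold change of 0.48 (SE 0.17, edgeR adjusted p = 0.156). Of 24 nucleolar and rRNA transcription genes, 15 were below 0 (9782 of 15322 protein-coding genes were), 5 of them at an unadjusted p under 0.05 (8.48% of all genes tested), and 0 passed an adjusted p of 0.05 by edgeR. Among them was Utp3, a factor of small subunit assembly, at -0.49 (SE 0.12, edgeR adjusted p = 0.0942). Of 12 RNAs listed as kept in the nucleus, 9 were above 0, 8 of them at an unadjusted p under 0.05 (11.7% of all genes tested). By edgeR 1 passed the adjusted p of 0.05, namely Neat1 (0.70, SE 0.09, edgeR adjusted p = 0.0371), where 0.0178% of all genes tested did. That count was 0 with limma voom, 0 to 1 with a mouse left out, and 7 with DESeq2 (7.49% of all genes given an adjusted p). Of 19 tested lncRNA genes listed as snoRNA hosts, 16 were above 0, 8 of them at an unadjusted p under 0.05. Of those 8, only Snhg14 and Snhg16 were assigned as host of a Snord or Snora gene of the table. Meg3, Mirg and the others were not. By edgeR with its own filter 0 of the 19 passed an adjusted p of 0.05. With no filter 7 of 20 did, and DESeq2 called 8 of 20 (7.49% of all genes given one). In class lncRNA as a whole, 62.6% of 3339 genes tested were above 0, and 452 were higher at an unadjusted p under 0.05. The last list shares Gas5, Snhg11, Snhg14, Meg3, Rian and Mirg with the nuclear list.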

How the data were processed

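Bulk RNA-seq was performed on frozen cerebella of 4 *Atm*-WT and 4 *Atm*-KO mice. Per the labels and the methods, the authors checked reads with FastQC 0.11.9, aligned them with STAR to GRCm39 and counted them per gene with featureCounts; they deposited raw counts. Strand, pair, overlap and multimapping settings are not given in the sources used here. Of the 56691 gene IDs, 56017 were matched to GENCODE vM39 for class, position and host (the enclosing gene on the same strand). Totals were 65967130 to 88030300 counts per library, and the number of mice limits precision.

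Counts were tested with edgeR 4.0.16 (R 4.3.3; filterByExpr with a minimum count of 10, TMM, quasi-likelihood F-test, Benjamini-Hochberg over all 22423 genes tested). Changed genes simulated at the depths of these libraries, with a common dispersion for all genes, were used to test the script. They were drawn above a level that most members do not reach, so the simulation does not cover recovery at the members' levels. A fit of all genes with 40 summed counts, DESeq2 1.42.0, limma voom 3.58.1, other scalings and filters, and each mouse left out were alternatives. Named members were, in each class, the 6 most abundant, the 5 lowest p-values on either side, and the 3 largest and 3 smallest fold changes among members with a mean of 10 counts. Snord13 and Snora73a were also named, as the members just inside the count minimum. Members and lists were chosen with earlier results of these data known. Papd5, an older symbol, was not matched. The labels pair no mice, and no p-value was computed over a list.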

Additional observations from a re-analysis of the deposited data

Results flagged for a closer look

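Over the 22 named members, the summed level of each class and *Atm*, 50 groups of 4 libraries were examined for a single library far from the other 3. Of these, 7 were found, all in named members, where chance gives about 2.5 (1 in 20) among independent groups. The groups share the same libraries and the class sums contain the named members, so an excess over chance cannot be read from these numbers. For Snord118, *Atm*-WT mouse 13M was low at 0.0583 CPM, with the others at 0.187 to 0.201 CPM. For Snora73b the same mouse was low at 1.33 CPM, with the others at 2.20 to 2.34 CPM. For Snora30, *Atm*-WT mouse 32M was low at 0.315 CPM, with the others at 0.722 to 0.805 CPM. For Snora23, *Atm*-KO mouse 11M was low at 0.116 CPM, with the others at 0.451 to 0.465 CPM. For Snord13, *Atm*-WT mouse 7M was high at 0.121 CPM, with the others at 0.0466 to 0.0583 CPM. For Snora73a, *Atm*-WT mouse 32M was high at 0.140 CPM, with the others at 0.0264 to 0.0403 CPM, and *Atm*-KO mouse 1M was high at 0.122 CPM, with the others at 0.0592 to 0.0645 CPM. Snord13 and Snora73a rest on 12 counts or fewer per library.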

How the results depend on the processing

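No member passed an adjusted p of 0.05 under any of the 17 alternatives (DESeq2 gave 22 of the 46 an adjusted p), and 315 of 321 values of single members kept their direction. Those that turned, each with 1 mouse left out, were Snord118 (-0.15 and -0.12; range -0.15 to 0.28), Snora69 (-0.097 and -0.12; to 0.51), Snora31 (-0.00052 to 0.60) and Snord17 (-0.010 to 0.66). C/D members higher in *Atm*-KO were 24 of 24, 7 of 7 with at least 10 counts in every library, 13 of 13 with halved counts, and 23 to 26 with a mouse left out. H/ACA members higher were 8 of 9, 14 of 15 with DESeq2, with no filter and with 40 summed counts, 1 of 2 with at least 10 counts, 4 of 5 with halved counts, and 8 to 10 with a mouse left out. For the minimum of 10 counts and for halved counts, fewer genes tested accounts for the lower counts by construction. The number tested also changed with a mouse left out. Over all members, by the ratio of mean CPM, 29 or 30 of 31 C/D and 12 to 14 of 15 H/ACA members were then higher. Members higher at an unadjusted p under 0.05 were 8 of 33 (11.7% of all genes), 4 of 9 with at least 10 counts (13.8%), and 2 of 33 (7.9%, without KO 1M) or 2 of 36 (8.65%, without WT 32M) to 14 of 37 (13.8%, without KO 7F) with a mouse left out. The C/D median was 0.83, 0.39 with at least 10 counts in every library, and 0.71 to 1.03 with a mouse left out; the H/ACA median was 0.39, and 0.26 to 0.61. The host median was -0.12, -0.069 with library size alone, 0.58 for the lncRNA hosts apart, and -0.118 to -0.077 with a mouse left out. The scaRNA median of -0.15 became 0.36 with DESeq2, 0.34 with no filter, 0.25 with 40 summed counts, and 0.165, 0.150 and 0.087 without WT 32M, KO 7F or KO 11M (range -0.114 to 0.165). Over all genes, 4 passed an adjusted p of 0.05 with edgeR and 1552 with DESeq2, which by list called 1 assembly factor, 2 nucleolar genes (1 with no filter), 7 nuclear RNAs (7 with no filter, 0 with voom, 0 to 1 with a mouse left out) and 8 host lncRNAs (7 with no filter). *Atm* passed with DESeq2 (-0.657), with no filter (-0.658) and without WT 32M (-0.740); its range with a mouse left out was -0.740 to -0.586. The cause of these changes was not tested. No paired analysis was possible because the labels pair no mice. Leaving out Snora73b, an alternative chosen after seeing the data, gave an H/ACA median of 0.43. The p-values cover the spread between these 8 mice alone.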

Other observations

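Of the 343 values of 1 to 50 counts among the 46 members, 146 were even (42.6%), against 69.0% of all such values in the table, 74.95% in protein-coding genes, 71.5% in TEC genes, 58.0% in scaRNA genes and 49.5% in miRNA genes. These differences were not tested. The share was 42.1% for members touching an exon and 42.9% for members in introns alone.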
